A study of Mus musculus with 19 samples.

Results

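Hepatic stellate cells (HSCs) are the vitamin A-storing pericytes of the liver and the main source of scar-forming myofibroblasts after injury. The 10 genes described here code for secreted signals of inflammation made by such cells: 7 chemokines (Ccl2, Ccl7, Cxcl1, Cxcl2, Cxcl10, Cxcl12 and Cxcl16), 2 cytokines that signal through the receptor gp130 (Il6 and Lif) and 1 colony stimulating factor (Csf1). They were chosen by name as chemokine and inflammatory cytokine genes, with earlier results of these data known. All 10 were found among the 55487 genes of the count table. All 10 also passed the filter on low counts, which left 15138 genes for testing.

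The RNA came from HSCs of healthy Balb/c males of 23 to 24 weeks, sorted by their ultraviolet fluorescence. They were collected either straight after the sort (0 h, n = 2, with no treatment on the label) or after 3, 6, 12, 18 and 96 h (n = 3 each) and 24 h (n = 2) on collagen-coated wells in DMEM with 10% serum. No transgene, drug or injury was used, so plating, serum and time are shared by all cultured samples. Medium was replaced after 3 h and after 24 h, so its effect and that of time cannot be told apart. Each sample pools 2 technical repeats. The labels number the samples 1 to 3 within a timepoint, and numbers 1 and 3 share an isolation date that differs from the date of number 2. Number 1 has no sample at 0 h and number 3 has none at 24 h. The labels do not say whether a number stands for 1 animal, so p-values measure the spread between these samples.

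Chemokines are small secreted proteins that direct the migration of leukocytes through receptors coupled to G proteins. Those of the CC class mainly draw monocytes, those of the CXC class with an ELR motif mainly draw neutrophils, and CXCL10 draws activated T cells. Many are immediate targets of the transcription factor NF-kB, and interferon acts on Cxcl10 through the element called ISRE. In the liver, HSCs and Kupffer cells, the resident macrophages, are both known sources of such signals.

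The libraries were read from the 3′ end and held 2073171 to 7690892 counts each, so that 3 counts, taken here as the smallest level that can be shown, equal 0.39 to 1.45 CPM (library-scaled counts) before the TMM scaling that all levels below carry. The counting error is only part of the spread between samples. Quiescent HSC markers (13 genes, among them Lrat and Reln) summed to 31698 to 36696 CPM at 0 h and were still at 2047 to 2051 CPM at 24 h, with 1 of the 13 at 0 there. Called lower than at 0 h were 1, 8, 13, 13, 11 and 11 of the 13 at 3, 6, 12, 18, 24 and 96 h. Over all genes tested the shares called lower were 1.39%, 4.35%, 9.10%, 8.21%, 3.86% and 5.03%. Other liver cells also left RNA in the freshly sorted cells, as given beside the results below. In bulk RNA, fewer cells of a type and less RNA per cell cannot be told apart.

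Ccl2, Ccl7, Cxcl1, Cxcl2, Cxcl16, Lif and Csf1 were higher within 3 h of plating, and by 96 h only Lif and Csf1 were still called higher than in fresh cells. Against 0 h, 7 of the 10 were called higher at 3, 6 and 12 h, then 6 at both 18 and 24 h, and 2 at the last time, 96 h, a gene being called where it differed by more than 2-fold at a Benjamini-Hochberg adjusted p under 0.1. Among all genes tested, 4.19%, 6.98%, 8.60%, 7.64%, 5.65% and 5.83% were called higher at these times. Called lower were 0 of the 10 at 3 h, 1 at 6, 12, 18 and 24 h, and 5 at 96 h, beside 1.39%, 4.35%, 9.10%, 8.21%, 3.86% and 5.03% of all genes. At 3 h, where no call was lower, 8 of the 10 had an unadjusted p below 0.05, 7 of them higher, and DESeq2 also called 0 lower. All 6 comparisons share the same 2 samples at 0 h. The median log2 fold change of the 10 was 3.44 at 3 h, 4.04 at 12 h and -1.36 at 96 h, against 0.0, 0.0 and 0.0701 over all genes tested. Together the 10 genes took 0.415 and 0.485% of all counts in the samples at 0 h, 1.93 to 2.8% at 12 h and 0.248 to 0.301% at 96 h.

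**Figure D1:**
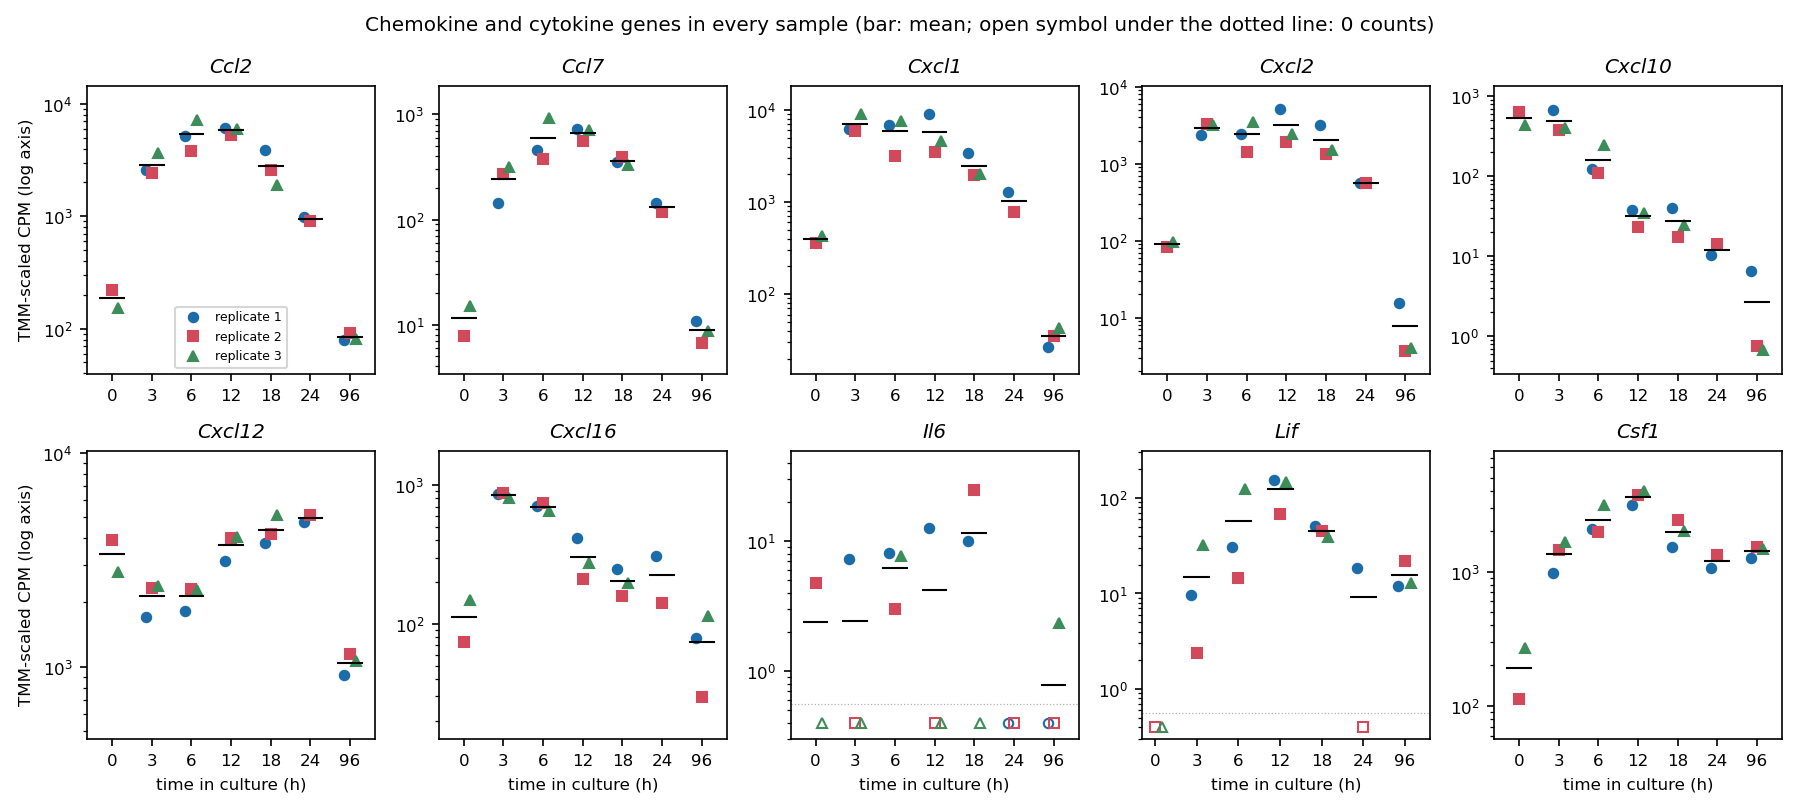
TMM-scaled CPM (log axis) of the 10 genes in each of the 19 samples against time in culture in h. Points are samples, marked by replicate number, bars are means, and open symbols under the dotted line are samples with 0 counts. Ccl2, Ccl7, Cxcl1 and Cxcl2 climb from 0 h to 3 h and drop to their lowest means at 96 h. Cxcl10 overlaps its 0 h samples at 3 h and lies below them from 6 h on, and Il6 lies at 0 in 10 of 19 samples.

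Ccl2 (ENSMUSG00000035385, chr11:82035571-82037453, plus strand, GRCm38.p6) codes for monocyte chemoattractant protein, the ligand of CCR2. Its level was 154 and 220 CPM at 0 h, then 2559, 3632 and 2400 CPM at 3 h and 5212, 7198 and 3780 CPM at 6 h for the samples numbered 1, 3 and 2. It was 6120, 5962 and 5329 CPM at 12 h, 3894, 1878 and 2594 CPM at 18 h, and 982 and 905 CPM at 24 h. By 96 h it had come down to 78.6, 80.7 and 92 CPM. Every sample from 3 to 24 h thus lay above both samples at 0 h, and every sample at 96 h lay below them. Ccl2 rose by a log2 fold change of 3.94 (SE 0.34, adjusted p = 5.38e-06) at 3 h and 4.95 (SE 0.36, adjusted p = 2.73e-07) at 12 h, which is 31.0-fold. At 96 h it fell below 0 h by a log2 fold change of -1.16 (SE 0.29, adjusted p = 0.0164). That last call was lost without 0 h replicate 2 (log2 fold change -0.88, adjusted p = 0.187) and with scaling on library size, where it stayed within 2-fold (adjusted p = 0.044).

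Ccl7 (ENSMUSG00000035373, chr11:82045712-82047525, plus strand) codes for another ligand of CCR2 and lies 8259 bases downstream of Ccl2. Its level was 15.1 and 7.77 CPM at 0 h, 144 to 315 CPM at 3 h, 380 to 932 CPM at 6 h and 556 to 727 CPM at 12 h. It then stood at 328 to 396 CPM at 18 h, at 119 and 145 CPM at 24 h, and at 6.74 to 10.9 CPM at 96 h. The samples at 96 h overlapped those at 0 h, while those of all other times lay above both. Ccl7 rose by a log2 fold change of 4.45 (SE 0.48, adjusted p = 2.94e-05) at 3 h and 5.90 (SE 0.51, adjusted p = 1.10e-06) at 12 h. At 96 h the log2 difference from 0 h was -0.35 (SE 0.42, adjusted p = 0.711). Over the 19 samples, log2 CPM of Ccl2 and Ccl7 had a Pearson r of 0.98, and the ratio of their counts lay between 5.73 and 28.3.

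Cxcl1 (ENSMUSG00000029380, chr5:90891241-90893115, plus strand) and Cxcl2 (ENSMUSG00000058427, chr5:90903871-90905938, plus strand) code for ELR-type ligands of CXCR2, the neutrophil receptor, and lie 10756 bases apart. Cxcl1 was at 428 and 363 CPM at 0 h and at 6240, 9071 and 5964 CPM at 3 h. It lay at 3138 to 7580 CPM at 6 h, 3471 to 8989 CPM at 12 h, 1939 to 3400 CPM at 18 h, 774 and 1299 CPM at 24 h and only 27 to 43.3 CPM at 96 h. The cultured samples up to 24 h were all above the 2 fresh ones, and those at 96 h were all below. Cxcl1 rose by a log2 fold change of 4.17 (SE 0.50, adjusted p = 9.96e-05) at 3 h, its highest mean, and fell below 0 h by a log2 fold change of -3.49 (SE 0.43, adjusted p = 5.76e-05) at 96 h. The call at 24 h (log2 fold change 1.39, SE 0.46, adjusted p = 0.0892) was lost without any of 8 of the 19 samples, the 2 at 0 h among them, at adjusted p = 0.101 to 0.474. The largest of these was without 24 h replicate 1, where the log2 fold change was 0.97. It was lost as well with DESeq2 size factors (adjusted p = 0.18).

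Cxcl2 moved in the same direction at each of these times. It was at 97.4 and 83 CPM at 0 h, 2337, 3237 and 3292 CPM at 3 h, 1409 to 3506 CPM at 6 h and 1916 to 5131 CPM at 12 h. It came to 1349 to 3162 CPM at 18 h, to 558 and 565 CPM at 24 h, and to 15.5, 4.04 and 3.66 CPM at 96 h. Again the samples from 3 to 24 h lay above both at 0 h, and those at 96 h below. Cxcl2 rose by a log2 fold change of 5.04 (SE 0.69, adjusted p = 0.000281) at 3 h and 5.13 (SE 0.69, adjusted p = 7.89e-05) at 12 h, and fell below 0 h by -3.60 (SE 0.59, adjusted p = 0.000708) on the log2 scale at 96 h. Its call at 24 h (log2 fold change 2.64, adjusted p = 0.0146) was lost without 0 h replicate 2 (adjusted p = 0.125). Log2 CPM of Cxcl1 and Cxcl2 had a Pearson r of 0.98 over the 19 samples, and the 6 pairs among these 4 chemokine genes lay between 0.90 and 0.98. These values describe samples that share the same time course and are no test.

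The stretches before the transcript starts of Cxcl1 and Cxcl2 are printed because both genes rose together and both hold 2 matches to the NF-kB motif. RefSeq windows of the same build were searched over the 250 bases before the start, and bases 250 to 31 before it are shown, 5′ to 3′ on the gene's strand, with matches in capitals.
Cxcl1, chr5:90890995-90891214, GRCm38.p6, plus strand: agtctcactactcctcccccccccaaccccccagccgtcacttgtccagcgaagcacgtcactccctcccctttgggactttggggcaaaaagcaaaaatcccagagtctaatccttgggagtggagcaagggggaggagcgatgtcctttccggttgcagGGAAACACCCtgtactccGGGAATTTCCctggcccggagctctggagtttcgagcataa
Cxcl2, chr5:90903649-90903868, GRCm38.p6, plus strand: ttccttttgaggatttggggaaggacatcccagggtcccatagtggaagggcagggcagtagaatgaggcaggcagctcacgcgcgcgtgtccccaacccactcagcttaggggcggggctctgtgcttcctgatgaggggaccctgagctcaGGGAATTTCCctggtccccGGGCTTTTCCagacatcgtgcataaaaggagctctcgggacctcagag
In Cxcl1 the matches begin 89 bases (on the other strand) and 71 bases before the start, and in Cxcl2 they begin 97 and 78 bases before it. The match nearer the start in Cxcl1 and the farther match in Cxcl2 have the same 10 letters.

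Cxcl10 (ENSMUSG00000034855, chr5:92346638-92348889, minus strand) codes for the interferon-inducible ligand of CXCR3. Its mean was highest in the fresh cells. Its level was 438 and 632 CPM at 0 h, 674, 408 and 380 CPM at 3 h, and 122, 246 and 110 CPM at 6 h. It then lay at 23.4 to 37.8 CPM at 12 h, 17.7 to 40.5 CPM at 18 h, 10.3 and 14.1 CPM at 24 h, and 6.6, 0.674 and 0.77 CPM at 96 h. The samples at 3 h overlapped those at 0 h, and from 6 h on every sample was below both. The log2 difference at 3 h was -0.13 (SE 0.61, adjusted p = 1.00). Cxcl10 fell by a log2 fold change of -4.06 (SE 0.65, adjusted p = 0.000379) at 12 h and -7.75 (SE 0.78, adjusted p = 7.01e-06) at 96 h. The call at 6 h (log2 fold change -1.75, SE 0.61, adjusted p = 0.0932) was lost without any of 12 of the 19 samples, at adjusted p = 0.102 to 0.35 and log2 fold changes of -2.02 to -1.47. The highest of these p-values came without 0 h replicate 2. It was lost with scaling on library size too (adjusted p = 0.11).

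The Cxcl10 stretch is shown because it is the single window of the 7 available that held the interferon element ISRE, which is first in capitals, followed by an AP-1 match.
Cxcl10, chr5:92348920-92349139, GRCm38.p6, minus strand: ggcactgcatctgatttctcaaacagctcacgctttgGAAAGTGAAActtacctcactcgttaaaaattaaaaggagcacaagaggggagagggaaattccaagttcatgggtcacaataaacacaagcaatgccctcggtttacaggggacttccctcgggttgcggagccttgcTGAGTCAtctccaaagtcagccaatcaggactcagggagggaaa
The ISRE match begins 213 bases and the AP-1 match 74 bases before the start.

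Cxcl12 (ENSMUSG00000061353, chr6:117168535-117181367, plus strand) codes for the homeostatic ligand of CXCR4 that quiescent HSCs are known to make. Its level was 2771 and 3932 CPM at 0 h, 1708 to 2400 CPM at 3 h, 1834 to 2301 CPM at 6 h and 3135 to 4044 CPM at 12 h. It lay at 3775 to 5108 CPM at 18 h, at 4777 and 5115 CPM at 24 h, and at 919, 1069 and 1148 CPM at 96 h. The samples at 3 and 6 h were below both at 0 h, those at 24 h above both, and those at 12 and 18 h overlapped them. The log2 differences of -0.64 (SE 0.20, adjusted p = 0.0835) at 3 h and -0.65 (SE 0.20, adjusted p = 0.0480) at 6 h stayed within 2-fold, as did 0.56 (SE 0.22, adjusted p = 0.157) at 24 h. At 96 h Cxcl12 fell below 0 h by a log2 fold change of -1.68 (SE 0.20, adjusted p = 3.15e-05). Its highest mean was thus at 24 h and its lowest at 96 h.

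Cxcl16 (ENSMUSG00000018920, chr11:70453983-70459984, minus strand) codes for a membrane-bound chemokine, shed as the ligand of CXCR6. It was at 149 and 74.2 CPM at 0 h, 866, 800 and 882 CPM at 3 h and 706, 646 and 737 CPM at 6 h. Later it lay at 210 to 418 CPM at 12 h, 158 to 250 CPM at 18 h, 141 and 306 CPM at 24 h and 29.5 to 114 CPM at 96 h. The samples at 3, 6, 12 and 18 h were all above both at 0 h, and those at 24 and 96 h overlapped them. Cxcl16 rose by a log2 fold change of 2.93 (SE 0.52, adjusted p = 0.00264) at 3 h, 2.65 (SE 0.51, adjusted p = 0.00280) at 6 h and 1.44 (SE 0.48, adjusted p = 0.0584) at 12 h. The call at 12 h was lost without 0 h replicate 2 (log2 fold change 1.01, adjusted p = 0.384), without 12 h replicate 1 (1.12, adjusted p = 0.165) and with DESeq2 size factors (adjusted p = 0.117). At 18 h the log2 difference of 0.86 (SE 0.47, adjusted p = 0.260) was not called.

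Il6 (ENSMUSG00000025746, chr5:30013114-30019981, plus strand), the acute-phase cytokine, was barely counted. It had 0 counts in 10 of the 19 samples and at most 140 counts in a library. Its levels were 0 and 4.76 CPM at 0 h, 8.01, 7.67 and 2.98 CPM at 6 h, 9.99, 0 and 24.6 CPM at 18 h, and 0 in both samples at 24 h. At 96 h it was counted only in the sample numbered 3, at 2.36 CPM. At 3 and 12 h it was counted in 1 sample each, numbered 1, at 7.3 and 12.5 CPM. The 3 samples at 6 h are the single timepoint with counts throughout, and they overlap the range at 0 h. No comparison with 0 h called Il6, with adjusted p = 0.392 to 1.00, so that no difference was detectable at this depth and spread.

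Lif (ENSMUSG00000034394, chr11:4257557-4272514, plus strand), a relative of Il6 that signals through LIFR and gp130, had 0 counts in both samples at 0 h. It was at 9.62, 32.2 and 2.4 CPM at 3 h, 30.3, 125 and 14.5 CPM at 6 h, and 155, 148 and 67 CPM at 12 h. It then lay at 51.2, 39.3 and 44.9 CPM at 18 h, 18.5 and 0 CPM at 24 h, and 12, 12.8 and 22.1 CPM at 96 h. Apart from 24 h replicate 2, every cultured sample was above both at 0 h. Against the floor of 3 counts, 1.51 CPM in the shallower library at 0 h, the means at 3, 6, 12, 18, 24 and 96 h were at least 9.79, 37.6, 82, 30, 6.12 and 10.4-fold higher. The adjusted p at these times was 0.0796, 0.0165, 0.00685, 0.0162, 0.0905 and 0.0483.

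The Lif call at 12 h held without any single sample. The call at 24 h rested on replicate 1, without which both groups were at 0, and it was lost without 14 of the 19 samples (adjusted p = 0.101 to 1.0). The call at 3 h was lost without 7 of them (0.1 to 0.375, the highest without 0 h replicate 2), and those at 6, 18 and 96 h without 0 h replicate 2 (0.142, 0.129 and 0.271), at 6 and 96 h also without 0 h replicate 3 (0.101 and 0.184).

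Csf1 (ENSMUSG00000014599, chr3:107741048-107760469, minus strand), the growth factor of macrophages, stayed high. Its level was 271 and 113 CPM at 0 h, 975, 1664 and 1441 CPM at 3 h, 2089, 3156 and 1980 CPM at 6 h and 3127, 3979 and 3706 CPM at 12 h. It lay at 1532 to 2435 CPM at 18 h, at 1062 and 1322 CPM at 24 h and at 1263, 1479 and 1531 CPM at 96 h. All cultured samples were above both at 0 h. Csf1 rose by a log2 fold change of 2.83 (SE 0.36, adjusted p = 0.000156) at 3 h, 4.24 (SE 0.39, adjusted p = 1.74e-06) at 12 h and still 2.90 (SE 0.36, adjusted p = 5.95e-05) at 96 h. Lif and Csf1 were the members still called higher at 96 h. Their log2 CPM had a Pearson r of 0.83 over the 19 samples, whereas that of Csf1 and Cxcl10 was -0.35.

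Csf1 and Il6 each held 1 NF-kB match, and their stretches are shown as a pair because Csf1 rose at every time and Il6 was never called. An AP-1 match comes first in Il6, and the match in Csf1 lies on the other strand.
Il6, chr5:30012864-30013083, GRCm38.p6, plus strand: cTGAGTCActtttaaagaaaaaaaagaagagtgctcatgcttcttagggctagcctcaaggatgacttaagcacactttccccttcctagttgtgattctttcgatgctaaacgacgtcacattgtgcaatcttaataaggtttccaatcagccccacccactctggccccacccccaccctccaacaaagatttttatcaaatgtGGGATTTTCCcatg
Csf1, chr3:107760500-107760719, GRCm38.p6, minus strand: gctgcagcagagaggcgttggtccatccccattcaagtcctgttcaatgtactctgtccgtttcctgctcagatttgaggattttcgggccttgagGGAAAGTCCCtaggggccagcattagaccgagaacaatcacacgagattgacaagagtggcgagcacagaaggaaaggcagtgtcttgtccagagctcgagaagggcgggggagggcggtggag
The NF-kB match begins 44 bases before the start in Il6 and 154 bases before it in Csf1.

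Motifs were searched on both strands as GGG, any 2 bases and TTTCC for NF-kB, TGANTCA for AP-1, GAAA, any 2 bases and GAAA for ISRE, and TATAAA for the TATA box. Promoter windows were at hand for 7 of the 10 genes and not for Ccl2, Ccl7 and Cxcl16. The NF-kB letters were found in 4 of the 7 (Cxcl1, Cxcl2, Il6 and Csf1) and in 1.41% of all 32851 RefSeq windows of this length. AP-1 letters were in 3 of the 7 (Il6, Cxcl10 and Lif) and in 6.75% of all windows, ISRE letters in 1 (Cxcl10) and in 2.98%, and the TATA letters in 0 and in 12.4%. The AP-1 motif is its own reverse complement, so each match counts once. A match describes letters and not a bound site. Only the spelling of the NF-kB motif given above was searched. A window without a match, that of Cxcl10 among them, can thus hold an NF-kB site of another spelling.

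**Figure D2:**
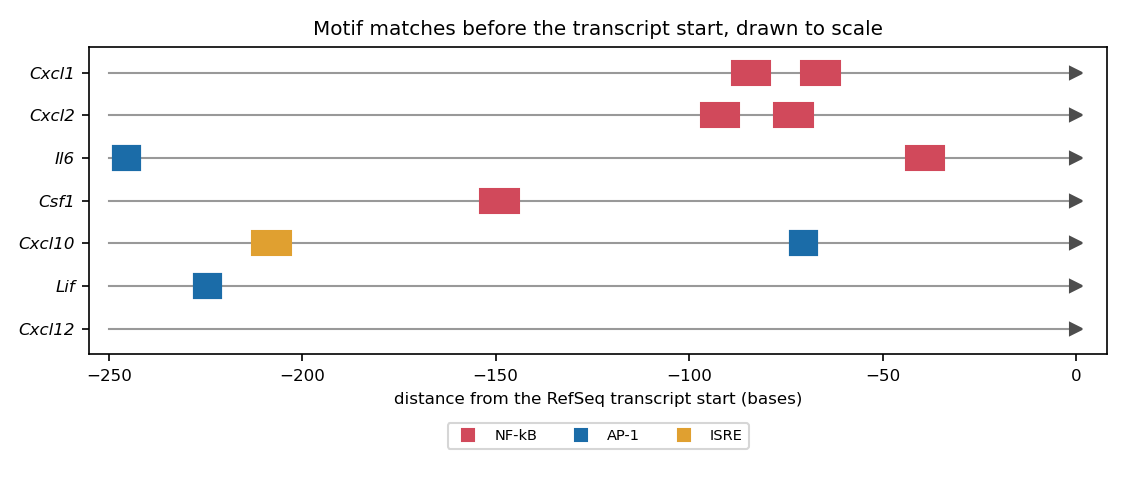
Positions of NF-kB, AP-1 and ISRE matches in the 250 bases before the RefSeq transcript start (arrowhead at 0) of the 7 genes with a window; the axis is the distance from the start in bases, and boxes are drawn to scale. Cxcl1 and Cxcl2 each hold 2 NF-kB matches within 97 bases of the start, Csf1 and Il6 hold 1, and Cxcl12 holds none of the 3 motifs.

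Next, the timepoints in culture were compared with each other. From 3 to 6 h, 1 of the 10 was called (4.49% of all genes in either direction). This was Ccl7, with a log2 fold change of 1.28 (SE 0.34, adjusted p = 0.0488), and the call was lost without 3 h replicate 1 (0.96), 3 h replicate 2 (1.31, adjusted p = 0.119) or 6 h replicate 3 (0.78), and with 2 groups only in the fit (adjusted p = 0.132). From 6 to 12 h, 1 was called (1.84% of all genes, or 278, which became 150 without 12 h replicate 3), namely Cxcl10, which fell by a log2 fold change of -2.31 (SE 0.58, adjusted p = 0.0679). That call was lost without 6 h replicate 3 or without any sample at 12 h (adjusted p = 0.13 to 0.235).

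From 12 to 18 h, 0 of the 10 were called (0.225% of all genes), while 4 had an unadjusted p below 0.05 and DESeq2 called 2 lower. From 18 to 24 h, 0 were called again (0.0396% of all genes), with 5 at an unadjusted p below 0.05 and 3 called lower by DESeq2. Ccl2 had the lowest unadjusted p of the 10 in both steps, with log2 differences of -1.06 (SE 0.26, adjusted p = 0.170) and -1.56 (SE 0.30, adjusted p = 0.168).

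Between 24 and 96 h, 6 of the 10 were called, all lower (2.72% of all genes, or 411, which became 124 without 24 h replicate 2 and 270 without 24 h replicate 1). These were Cxcl2, which fell by a log2 fold change of -6.23 (SE 0.64, adjusted p = 5.64e-05), Cxcl1 (-4.88, SE 0.45, adjusted p = 3.09e-05), Ccl7, Ccl2, Cxcl12 and Cxcl16. For Cxcl12, with a log2 fold change of -2.24 (SE 0.20, adjusted p = 1.71e-05), the samples at 24 h lay at 4777 and 5115 CPM and those at 96 h at or below 1148 CPM. The Cxcl16 call (log2 fold change -1.59, SE 0.45, adjusted p = 0.0937) was lost without any of 14 of the 19 samples (adjusted p = 0.106 to 0.707). Cxcl10 was not called (log2 difference -2.31, SE 0.69, adjusted p = 0.123). It was called lower without 96 h replicate 1, its highest sample at that time (-4.04, adjusted p = 0.00214), with library size only (0.0917), with DESeq2 (0.0253), with no filter on low counts (0.0845) and with isolation date as a covariate (0.0831). Csf1 differed by 0.26 (SE 0.32, adjusted p = 0.907) on the log2 scale.

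Between 6 and 96 h, 7 of the 10 were called, all lower (13.2% of all genes). Cxcl2 fell by a log2 fold change of -8.36 (SE 0.68, adjusted p = 7.26e-07), Cxcl1 by -7.38 (SE 0.49, adjusted p = 9.75e-08), Ccl7 by -6.07 (SE 0.42, adjusted p = 1.23e-07) and Ccl2 by -6.01 (SE 0.32, adjusted p = 9.25e-09). Cxcl10 and Cxcl16 fell as well, by -6.01 (SE 0.72) and -3.23 (SE 0.44). Cxcl12 lay at the limit with a log2 fold change of -1.03 (SE 0.18), which fell within 2-fold (-0.98 to -0.94) without 6 h replicates 2 or 3, without 96 h replicate 1, under both other scalings and in DESeq2.

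**Figure D3:**
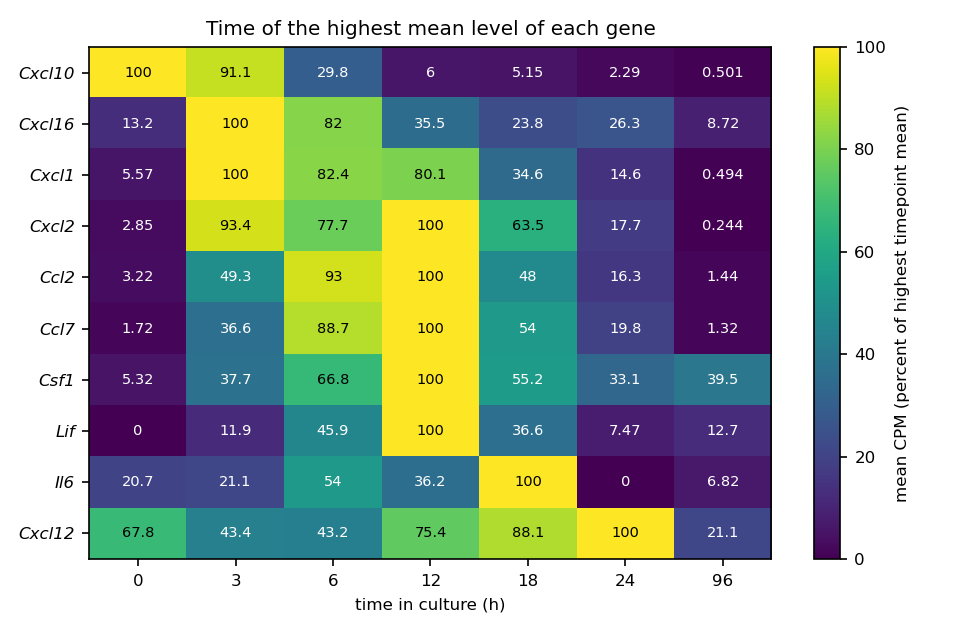
Mean CPM of each gene at each time in culture (h), as a percent of that gene's highest timepoint mean (colour scale and printed values). Cxcl10 has its highest mean before culture, Cxcl16 and Cxcl1 after 3 h, Cxcl2, Ccl2, Ccl7, Csf1 and Lif after 12 h, Il6 after 18 h and Cxcl12 after 24 h. At 96 h Csf1 keeps 39.5% of its highest mean and Cxcl2 0.244%.

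Within each gene, the order of the timepoint means left neighbours that did not differ beyond their spread. For Cxcl1 the means at 3, 6 and 12 h were 7092 ± 1720, 5846 ± 2375 and 5679 ± 2920 CPM (SD, n = 3 each). For Cxcl2 they were 2955 ± 536, 2457 ± 1048 and 3164 ± 1724 CPM (SD, n = 3 each). Ccl2 at 6 and 12 h was at 5397 ± 1716 and 5804 ± 419 CPM (SD, n = 3 each), with overlapping samples. The means of Csf1 were 1192 ± 184 CPM (SD, n = 2) after 24 h, then 1425 ± 142 CPM (SD, n = 3) after 96 h, and their samples overlapped.

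Numbers 2 and 3 come from different isolation dates, and changes within the samples of each number had the same direction. For the samples numbered 2, the log2 change of CPM from 0 to 12 h was 4.60 for Ccl2, 6.16 for Ccl7, 3.26 for Cxcl1, 4.53 for Cxcl2 and 5.04 for Csf1. For those numbered 3 it was 5.28, 5.57, 3.42, 4.65 and 3.88. Cxcl10 changed by -4.75 and -3.64 over the same step. Cxcl16 changed by 3.57 and 2.42 from 0 to 3 h.

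Of the 30 genes listed as most alike in log2 CPM over the 19 samples, 3 for each of the 10 genes, 7 were among the 10 themselves, all for Ccl2, Ccl7, Cxcl1 and Cxcl2. For Ccl2 they were Ccl7, 2410006H16Rik and Cxcl2 (Pearson r 0.977, 0.962 and 0.957), and for Cxcl1 they were Cxcl2, H3f3b and Ccl2 (0.977, 0.964 and 0.952). Cxcl10 was most like H2-T23 (0.971), Apoe (0.966) and Clk1 (0.956). Csf1 was most like Mthfd2, Rbpj and Ereg (0.946, 0.936 and 0.935), and Lif like Ncoa5, Cldn12 and Thbs1 (0.861, 0.856 and 0.837). Cxcl16 ran closest to Stk40, Jak2 and Slc15a3 (0.921, 0.916 and 0.914), and Cxcl12 to Robo2 (0.915). All samples share the time course, so these are descriptions.

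Few other CC chemokine genes were called. Of 15 further CC chemokine genes, 9 had counts and 7 were tested. Ccl5, a chemokine that draws T cells and monocytes, was the single gene called, with 0 counts at 0 h, 19.5 to 28.5 CPM at 6 h (at least 15-fold above the floor, adjusted p = 0.0801) and 0 counts from 18 h on. At 3, 18, 24 and 96 h none was called in either direction, with 1, 1, 0 and 1 at an unadjusted p below 0.05 and 1, 0, 0 and 0 called by DESeq2. Of 12 further CXC, CX3C and XC genes, 7 were tested, and Cxcl3 and Cxcl5, both CXCR2 ligands, were called higher at all 6 times. Among all genes tested, 4.19% to 8.60% were called higher at these times. Cxcl5 had 0 counts at 0 h, 22.3 to 61 CPM at 3 h and 54 to 305 CPM at 18 h, which is at least 114-fold above the floor (adjusted p = 0.00418). Cxcl3 lay at 0.501 and 1 CPM at 0 h and at 12.5 to 142 CPM at 18 h (log2 fold change 6.56, SE 1.33, adjusted p = 0.00330). Cxcl9, like Cxcl10 an interferon-inducible ligand of CXCR3, was at 3.51 and 22.1 CPM at 0 h, 53.6 to 144 CPM at 3 h and 28.1 to 106 CPM at 6 h, then at 0 counts in every sample from 12 h on, where it was called lower.

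Among 27 further cytokine genes, 13 were tested. At 12 h, 3 were called higher and 3 lower, beside 8.60% and 9.10% of all genes tested. Il11, another gp130 cytokine, was at 1 and 4.02 CPM at 0 h and 220 to 252 CPM at 12 h, and rose by a log2 fold change of 6.66 (SE 0.74, adjusted p = 1.23e-05). Il1b and Il1a, the interleukin 1 genes, lay at 65.2 to 94.4 and 41.7 to 52.4 CPM at 0 h and at 0 counts in every sample from 12 h on (adjusted p = 0.0284 and 0.0391 at 12 h). Il15 was at 8.54 and 27.8 CPM at 0 h and at 0 from 6 h on (adjusted p = 0.0842 at 12 h).

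Of 17 genes of receptors for the 10 proteins or for other chemokines, 13 had counts and 11 were tested. Against 0 h, 0 were called higher at any time, 0 had an unadjusted p below 0.05 in that direction, and DESeq2 called 0 higher. Among all genes tested, 4.19% to 8.60% were called higher at these times, so 0 of 11 lies near that share. At 12 h 3 were called lower, beside 9.10% of all genes tested, and these were Lifr, Csf1r and Ackr4. Lifr, the receptor of LIF, went from 298 and 427 CPM at 0 h to 22.8 to 41.2 CPM at 12 h, a log2 fold change of -3.50 (SE 0.77, adjusted p = 0.00526). Csf1r, the receptor of CSF1 and also a macrophage marker, went from 61.3 and 64.9 CPM at 0 h to 10 to 23.2 CPM at 96 h (log2 fold change -1.92, SE 0.54, adjusted p = 0.0332). Ackr4, a scavenger receptor of CC chemokines, went from 62.8 and 101 CPM to 0 counts at 12 h. Of the enzymes that shed or trim proteins of the 10 genes, 5 were tested. Against 0 h, 0 of these were called higher, 0 had an unadjusted p below 0.05 in that direction, and DESeq2 called 0 higher. With 5 genes, 0 calls likewise lie near the 4.19% to 8.60% of all genes tested. Dpp4, the peptidase that trims CXCL12 and CXCL10, went from 53.7 and 69.5 CPM at 0 h to 0 counts from 18 h on (adjusted p = 0.00955 at 18 h). Adam10, which sheds CXCL16, fell by a log2 fold change of -2.38 (SE 0.57, adjusted p = 0.0134) at 6 h. That fall did not last, with 56.7 and 68.8 CPM at 0 h, 60 and 68.7 CPM at 24 h and 56.2 to 80.3 CPM at 96 h.

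Genes of the NF-kB family and its feedback moved early. Of 13, 11 were called higher at 3 h, 8 at both 6 and 12 h, and then 3, 2 and 1 at 18, 24 and 96 h, with 3 called lower at the last of these. Among all genes tested, 4.19% to 8.60% were called higher at these times, and 5.03% were called lower at 96 h. Tnip1, an inhibitor of the pathway, rose by a log2 fold change of 5.23 (SE 0.44, adjusted p = 3.96e-06) at 3 h, from 23.8 and 43.7 CPM at 0 h to 1156 to 1373 CPM. Nfkb2 and Rel, subunits of the factor, rose by 5.20 (SE 1.09, adjusted p = 0.00959) and 3.32 (SE 0.49, adjusted p = 0.000630), and Tnfaip3, the feedback inhibitor A20, by 4.96 (SE 0.78, adjusted p = 0.00105). Their highest means were at 3 h, like those of Cxcl1 and Cxcl16. Ccl2, Ccl7, Cxcl2, Lif and Csf1 had theirs at 12 h, where the samples of Ccl2 and Cxcl2 overlapped those at 6 h.

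Of 9 genes whose proteins act on the stability of cytokine mRNA, Zfp36 (tristetraprolin, which promotes its decay) fell by a log2 fold change of -2.76 (SE 0.35, adjusted p = 3.93e-05) at 12 h and -5.08 (SE 0.38, adjusted p = 3.48e-07) at 96 h. Hnrnpd, the decay factor AUF1, rose by 1.43 (SE 0.29, adjusted p = 0.00270) on the log2 scale at 12 h. In all, 2 of the 9 were called higher and 1 lower at 6 h, and 0 higher and 3 lower at 96 h. Among all genes tested, 6.98% were called higher and 4.35% lower at 6 h, and 5.83% higher and 5.03% lower at 96 h. At 96 h 2 had an unadjusted p below 0.05 and a higher level, DESeq2 called 0 higher, and scaling on library size called 1 higher and 2 lower.

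Among genes of the interferon response, calls from 6 h on were lower. Of 14, 1 was called higher at 3 h, and 1, 5, 8, 2 and 9 were called lower at 6, 12, 18, 24 and 96 h. Among all genes tested, 4.19% were called higher at 3 h. Called lower were 4.35%, 9.10%, 8.21%, 3.86% and 5.03% at the later times, so the single call at 6 h lies near that share. The median log2 fold change of the list at 3, 18, 24 and 96 h was 0.64, -2.94, -1.90 and -4.46. The list holds Irf1, an interferon-induced factor, which rose by a log2 fold change of 1.36 (SE 0.39, adjusted p = 0.0622) at 3 h and fell by -5.45 (SE 0.42, adjusted p = 4.51e-07) at 96 h. Rsad2, the antiviral gene viperin, lay at 15 and 65.8 CPM at 0 h and at 0 to 0.86 CPM at 96 h, a log2 fold change of -7.28 (SE 1.25, adjusted p = 0.00111). Oasl2, an antiviral gene, fell by -5.51 (SE 0.92, adjusted p = 0.000843) on the log2 scale at 96 h. No gene of these lists that was called against 0 h changed its direction under the other scalings, tests or covariates.

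**Figure D4:**
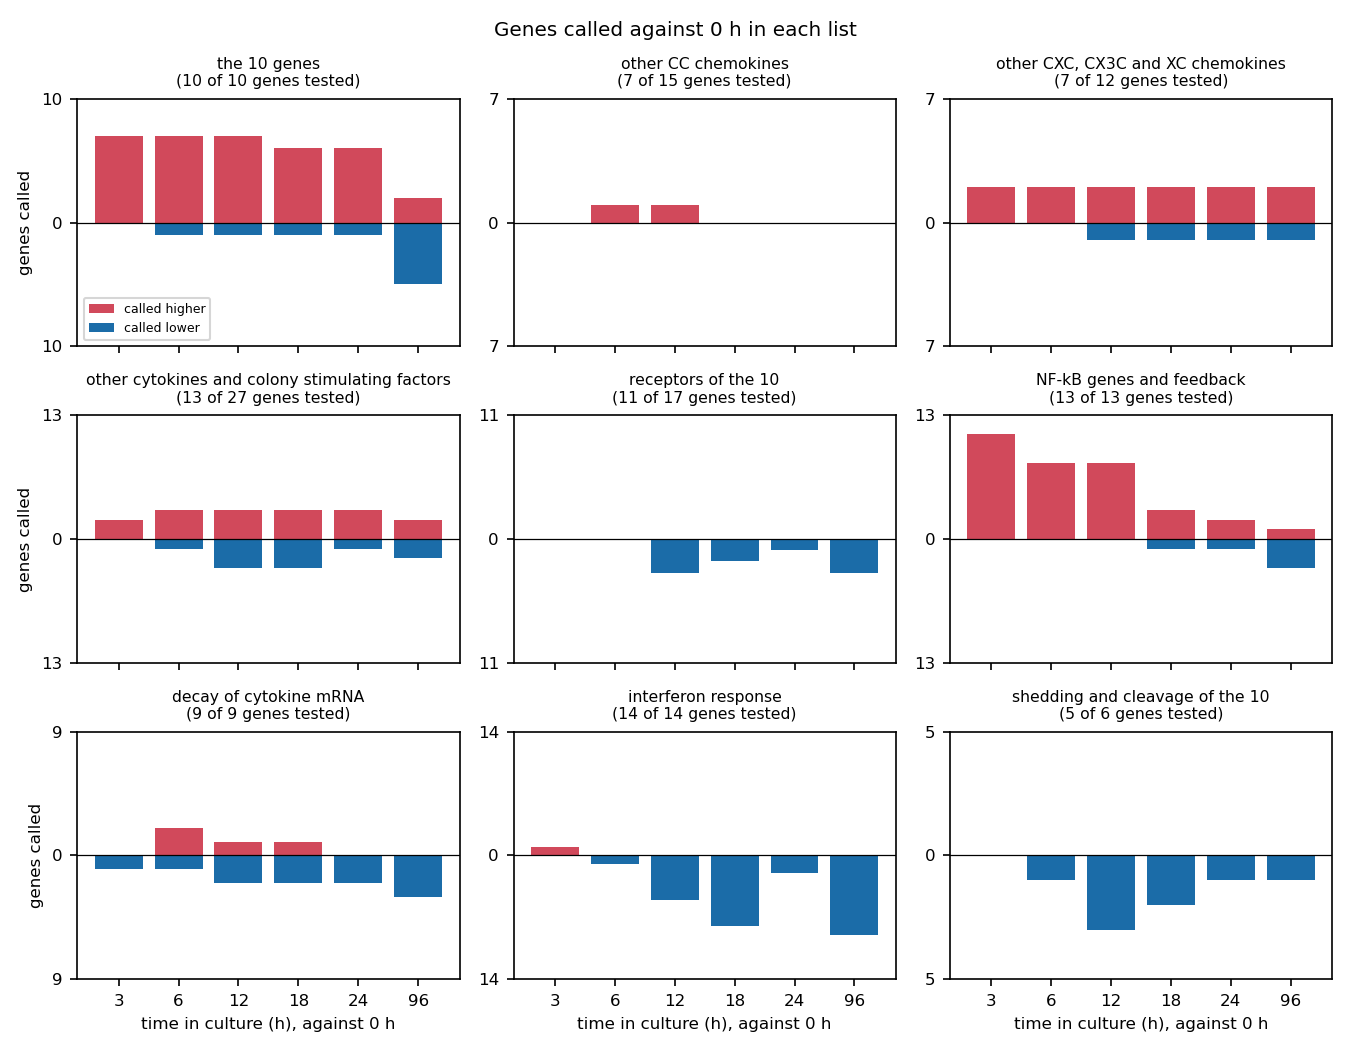
Number of genes called higher (above 0) and lower (below 0) against 0 h at each time in culture (h), for the 10 genes and 8 related lists; each vertical axis runs to the number of genes tested. NF-kB genes peak at 11 of 13 called higher at 3 h, and interferon-response genes reach 9 of 14 called lower at 96 h.

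The summed markers of Kupffer cells, hepatocytes and endothelial cells were lower at later times, though not every single marker was. Of 15 Kupffer cell and macrophage markers, 14 had counts at 0 h and summed to 548 to 612 CPM, and at 3 h to 300 to 566 CPM. From 6 h on the sum lay between 14.9 and 67.8 CPM, with 8 to 12 of the 15 at 0, and the defining marker Clec4f was at 0 counts at 6, 12, 18 and 96 h. Called lower were 0, 3, 6, 6, 5 and 7 of the 14 tested at 3, 6, 12, 18, 24 and 96 h. Over all genes tested the shares were 1.39%, 4.35%, 9.10%, 8.21%, 3.86% and 5.03%. Cxcl10, Cxcl9, Il1b and Il1a were called lower than at 0 h from 12 h on, apart from Il1a at 24 h, and the part of these cells in that was not tested.

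Hepatocyte markers (12 genes) summed to 4193 and 9138 CPM at 0 h, 495 to 1620 CPM at 3 h and 4.04 to 423 CPM from 6 h on, with 1, 8, 9, 11, 7 and 11 of them called lower. The shares of all genes given beside the Kupffer cell markers hold here and for the endothelial markers as well. Sinusoidal endothelial markers (12 genes) summed to 1138 and 1646 CPM at 0 h and to 1446 to 4994 CPM at 3 h, the highest in 3 h replicate 1, and came down to 15.3 to 279 CPM at 96 h, with 0, 0, 0, 4, 1 and 3 of them called lower. Within this list Cdh5 went the other way, from 28.1 and 40.7 CPM at 0 h to 100 to 270 CPM at 18 h. It lay at 0 to 36.7 CPM at 96 h. Pecam1 was at 20.6 and 28.1 CPM at 0 h and at 14.1 and 59 CPM at 24 h. At 18 h, 0 of the 12 were called higher, with 1 higher and 6 lower at an unadjusted p below 0.05. At each time in culture the sample numbered 1 held the highest endothelial sum. At 12, 18 and 24 h it also held the highest levels of Cxcl1, Ccl2, Cxcl16 and Lif. Cxcl2 and Cxcl10 were highest in it at 12 and 18 h but not at 24 h, and at 12 h it held the lowest Csf1 level. The part of endothelial RNA in this was not tested. Neutrophil and lymphocyte markers (10 genes) stayed at 0 counts in all samples but those at 3 h, where the sum reached at most 8.29 CPM and 9 of the 10 were at 0. Cholangiocyte and mesothelial markers (6 genes each) summed to at most 29.6 and 13.7 CPM in any sample.

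**Figure D5:**
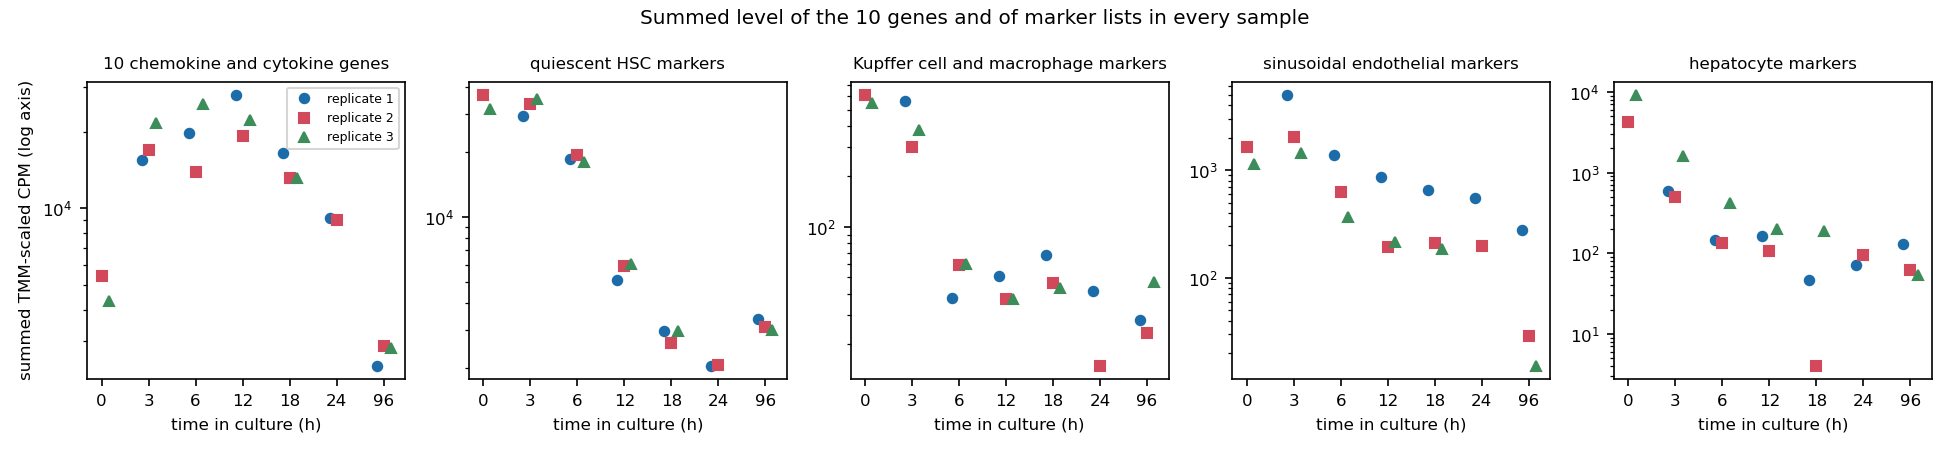
Summed TMM-scaled CPM (log axis) of the 10 genes and of 4 marker lists in each sample against time in culture (h), marked by replicate number. The sum of the 10 genes climbs from 4323 and 5429 CPM at 0 h to 19280 to 27853 CPM at 12 h while the Kupffer cell, endothelial and hepatocyte sums come down after 0 or 3 h.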

How the data were processed

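RNA of 19 HSC samples from 7 timepoints was sequenced from the 3′ end. Per the labels, the authors aligned the reads to GRCm38.p6 with STAR and named StringTie; tool versions and the settings of the counting step are not given in the sources used here. The authors deposited 1 table of raw counts per gene, with no normalization, and its values are used as deposited. Symbols were at hand for 55141 of the 55487 genes, and 23696 had counts. Levels between genes are not compared, since 3′ counts and mapping differ between genes.

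The 10 genes and all lists were chosen with earlier results of these data known. In edgeR 4.0.16 (R 4.3.3), filterByExpr, TMM scaling and the quasi-likelihood F test were run over all 19 samples with 1 coefficient per timepoint, for 12 comparisons, with Benjamini-Hochberg adjustment over the 15138 genes tested. CPM values are scaled by TMM factors. Fitted folds used a prior count of 2. DESeq2 1.42.0 and the settings in the closing section were alternatives. The test was checked on simulated counts of 14225 genes, with changes set between 0 and 12 h. It recovered 42 of 100 genes changed 4-fold and 72 of 100 changed 16-fold, with 5 false calls. The changed genes were drawn only from those above a limit on mean CPM, so these rates do not cover genes with few counts, such as Il6. A gene that was not called may thus still differ. Genes of other lists were named if called in at least 2 of the 6 comparisons with 0 h, up to 4 per list by largest log2 fold change. Counting limits cover counting error only. Some genes of these lists are not reported here by name.

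Samples with the same number were checked for pairing. Their deviations from the timepoint means had a mean r of 0.014 over 51 pairs (-0.072 to 0.082), against -0.0070 over 103 pairs of different numbers. The main fit therefore did not pair the samples by number. Such a mean r can miss an effect on some genes, such as the endothelial markers given above. The number as a block was thus run as an alternative. Positions are from GENCODE M21 and windows before transcript starts from RefSeq, both on GRCm38.p6. Python 3.11.15, pandas 2.3.3 and matplotlib 3.10.9 were used.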

Additional observations from a re-analysis of the deposited data

How the results depend on the processing

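Over 75 results and 1949 values under alternatives, 1839 kept their direction and side of the threshold, 89 lost the call, 16 gained one and 5 changed sign. The 5 were not called in the first place. The log2 difference of Cxcl10 at 3 h ranged from -0.41 to 0.19 over leaving out each sample (0.02, 0.06 and 0.19 without 3 h replicate 3, 3 h replicate 2 and 0 h replicate 2), that of Ccl7 at 96 h from -0.79 to 0.17 and that of Cxcl16 at 96 h from -1.05 to 0.01, the highest of both without 0 h replicate 3. Of 70 timepoint means, 4 moved by more than their SD with CPM by library size only: Ccl2, Cxcl2 and Cxcl12 at 24 h to 1060, 631 and 5554 CPM and Cxcl16 at 3 h to 759 CPM.

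The number of the 10 genes called from 3 to 6 h was 2 with library size only, with DESeq2 and with no limit on the fold change. From 6 to 12 h it was 2 with DESeq2, with the replicate block, with isolation date as a covariate and with no limit on the fold change, and 0 at an adjusted p below 0.05. From 12 to 18 h it was 2 with DESeq2 and 1 with no filter on low counts, and from 18 to 24 h it was 3 and 1. Leaving out 1 sample at a time gave 6 to 7 calls at 3 h, 6 to 8 at 6 h, 7 to 8 at 12 h, 6 to 7 at 18 h, 4 to 7 at 24 h (4 without 0 h replicate 2) and 5 to 7 at 96 h. It gave 0 to 2 from 3 to 6 h and from 6 to 12 h, 0 to 1 from 12 to 18 h and from 18 to 24 h, 5 to 6 from 24 to 96 h and 6 to 7 from 6 to 96 h.

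With the replicate number as a block, Lif was not called at 3 h (adjusted p = 0.104) and 24 h (0.125), Cxcl10 was called from 24 to 96 h (log2 fold change -2.53, adjusted p = 0.0741), Cxcl16 from 6 to 12 h (-1.30, 0.0885), and Ccl5 at no time. No other call of the 10 genes changed, and over all genes the block gave 2 calls in place of 6 from 18 to 24 h. DESeq2 called 1534 genes in place of 844 at 3 h, 2589 for 1715 at 6 h, 2229 for 1440 at 24 h, 1338 for 680 from 3 to 6 h, 864 for 278 from 6 to 12 h, 424 for 34 from 12 to 18 h, 229 for 6 from 18 to 24 h and 844 for 411 from 24 to 96 h. Leaving out 1 sample moved the calls over all genes by more than 1.5 times at 24 h (898 for 1440 without 24 h replicate 2), at 96 h (1043 for 1644 without 0 h replicate 2), from 12 to 18 h (63 for 34 without 12 h replicate 1), from 18 to 24 h (2 to 24 for 6) and in the steps from 6 to 12 h and 24 to 96 h given above. A fit of only the groups compared gave 7 for 34, 0 for 6 and 643 for 411 from 12 to 18, 18 to 24 and 24 to 96 h.

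Another scaling moved the share of calls that were higher. With DESeq2 size factors it was 49.0% for 61.6% at 6 h, 37.2% for 48.2% at 18 h, 48.2% for 59.4% at 24 h and 40.0% for 55.7% from 3 to 6 h. With library size it was 58.2% at 18 h, 71.5% at 24 h, 65.8% from 3 to 6 h, 45.5% for 32.4% from 12 to 18 h and 36.9% for 50.4% from 24 to 96 h. The median of all genes shifted by up to 0.24 on the log2 scale (24 h, library size). Depth limits Il6 and Lif, and the cause of the changes above was not tested.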
